A study of Mus musculus with 6 samples.

Results

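The 10 genes described here encode secreted antagonists of Wnt signalling, namely Sfrp1, Sfrp2, Sfrp4, Sfrp5, Frzb, Wif1, Dkk1, Dkk2, Dkk3 and Sost. They are the rows with these symbols in a deposited table of 23358 gene entries, and each symbol was found once. Ezh2-deficient and wildtype immature chondrocytes were compared. All came from mice labelled C57BL/6 - mix at post-natal day 5, from the cartilage of the femoral head, the femoral condyles and the tibial plateau. Both genotypes grew as micromasses, a high-density culture in which chondrocytes keep building matrix, in DMEM with serum and antibiotic, to which insulin, transferrin, selenium, ascorbic acid and β-glycerol phosphate were added. RNA was sequenced at days 3, 7 and 14, with 1 library per genotype and day, 6 in all. The titles of the Ezh2-deficient samples read Ezh2_cKO, a conditional knockout. The Cre driver and the deleted exons are not given in the sources used here. Nothing in the labels says that the libraries came from separate animals, so p-values measure only the spread between these libraries.

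Wnt proteins are secreted signals that bind a Frizzled receptor together with the coreceptor Lrp5 or Lrp6 and so stabilise β-catenin in the receiving cell. The antagonists act outside the cell by different routes. The secreted Frizzled-related proteins (Sfrp genes and Frzb) and Wif1 bind Wnt proteins, while Dkk1, Dkk2 and sclerostin, the product of Sost, bind the coreceptors. In the skeleton, Wnt signalling favours the osteoblast over the chondrocyte fate, and several of these antagonists are known as products of joint cartilage (Frzb) or of bone cells (Sost, Dkk1). Ezh2 is the methyltransferase of Polycomb repressive complex 2, which marks histone H3 at repressed genes and often sits at promoters rich in CpG dinucleotides.

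Sfrp5 was the antagonist that stood lower in the Ezh2-deficient cells. It was 3.28 to 3.87 times lower on each day, and it ranked first by p of all 16280 genes tested. The other 9 antagonists had positive fitted differences or, for Dkk3, one close to 0, and none of them passed the same test. Over time the order of the set changed. Sfrp5 fell between day 3 and day 14 in both genotypes, while Sfrp2, Wif1, Dkk3, Dkk1 and Dkk2 rose. Sost and Dkk1 had few counts before day 14.

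Total counts lay between 51985214 and 79323302 per library. Ezh2 itself had 14.7, 23.0 and 17.6 counts per 1000000 (CPM) in Ezh2-deficient libraries at days 3, 7 and 14, against 24.7, 40.2 and 27.9 in wildtype libraries. The gene was therefore lower on all 3 days but still counted, and gene counts do not show which exons the reads came from. Exons of Gm26625, on the opposite strand, overlap Ezh2 in the annotation, so part of the count may come from that gene, as strandedness is not stated. Its fitted log2 fold change over the 3 days was -0.74 ± 0.08 (SE), with an adjusted p of 0.0729 in edgeR's quasi-likelihood test and of 5.66e-07 in DESeq2. Xist, transcribed from the inactive X chromosome of female cells, had 513 to 842 CPM in Ezh2-deficient libraries, against 1065 to 1223 CPM in wildtype libraries. The sum of 4 Y-linked genes was 122 to 171 CPM in Ezh2-deficient libraries, against 60.6 to 90.8 CPM in wildtype libraries. None of the 10 antagonists is on a sex chromosome, and what part this sex-linked difference has in the results was not tested. Col2a1, Acan and the other 9 cartilage markers examined were detected in every library, whichever the genotype. Their summed level was 129619, 53810.8 and 23184.8 CPM in Ezh2-deficient libraries at days 3, 7 and 14, against 134089, 77115 and 37746 CPM in wildtype libraries. Markers of osteoblasts were detected in every library as well, and all 10 of them were above 3 fragments. In such bulk RNA, fewer cells of a type and less RNA per cell cannot be told apart.

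Sfrp5 (chromosome 19, 42197971 to 42202252, minus strand, build mm10) encodes a secreted Frizzled-related protein that binds Wnt ligands. Its promoter is shown because Sfrp5 was the member that passed the genotype test. The window covers 250 bases before and 50 bases after the transcription start (chr19:42202203-42202502, minus strand, RefSeq, GRCm38.p6), printed 5′ to 3′ with CpG dinucleotides in capitals.
Sfrp5: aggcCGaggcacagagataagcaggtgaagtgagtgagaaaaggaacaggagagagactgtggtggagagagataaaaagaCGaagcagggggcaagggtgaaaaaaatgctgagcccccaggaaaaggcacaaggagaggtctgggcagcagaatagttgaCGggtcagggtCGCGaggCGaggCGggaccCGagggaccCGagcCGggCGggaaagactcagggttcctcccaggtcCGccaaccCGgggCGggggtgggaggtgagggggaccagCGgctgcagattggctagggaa
This window held 15 CpG dinucleotides, against a median of 7 over 32851 promoter windows of the same length, and 34.6% of those windows held at least as many. Windows were found for 7 of the 10 antagonists, and in the other 4 not printed here the count was 25 for Wif1, 22 for Sfrp2, 20 for Frzb and 11 for Dkk2. The Sfrp5 window thus held more CpG dinucleotides than the median window, but fewer than those of Wif1, Sfrp2 and Frzb.

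Sfrp5 had 3008, 1864 and 310 counts in Ezh2-deficient libraries at days 3, 7 and 14, against 9116, 5480 and 1152 in wildtype libraries. This was 40.5, 23.7 and 5.66 CPM in Ezh2-deficient libraries, against 138, 77.7 and 21.9 CPM in wildtype libraries. On every day the Ezh2-deficient library was the lower one, although the ranges over the 3 days overlapped because both genotypes declined with time. The day 3 ratio of Ezh2-deficient to wildtype was 0.293 (exact 95% counting interval 0.276 to 0.310), that of day 7 was 0.305 (0.283 to 0.328) and that of day 14 was 0.259 (0.215 to 0.309). The 3 intervals overlapped one another. Intervals cover counting error only, with 1 fragment taken as 2 counts.

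With the 3 days standing in for replicates and day as a factor, the fitted log2 fold change of Sfrp5 was -1.81 ± 0.08 (SE), a 3.50-fold lower level in Ezh2-deficient cells. Its adjusted p in edgeR's quasi-likelihood test was 0.0190, and it was 1.25e-44 in DESeq2 and 0.0130 in limma-voom. Of all genes tested, 2 were called lower (0.0123%), the other being Nnt, a mitochondrial transhydrogenase, and 0 were called higher (0.0%). Among the 10 antagonists the count was 1 lower and 0 higher. With 1 day's pair of libraries left out, the adjusted p of Sfrp5 was 0.0023 (day 3 out), 0.227 (day 7 out) or 0.0692 (day 14 out), while the log2 fold change stayed between -1.86 and -1.74. The call was therefore lost on leaving out day 7 or day 14, at nearly the same size of difference.

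**Figure D1:**
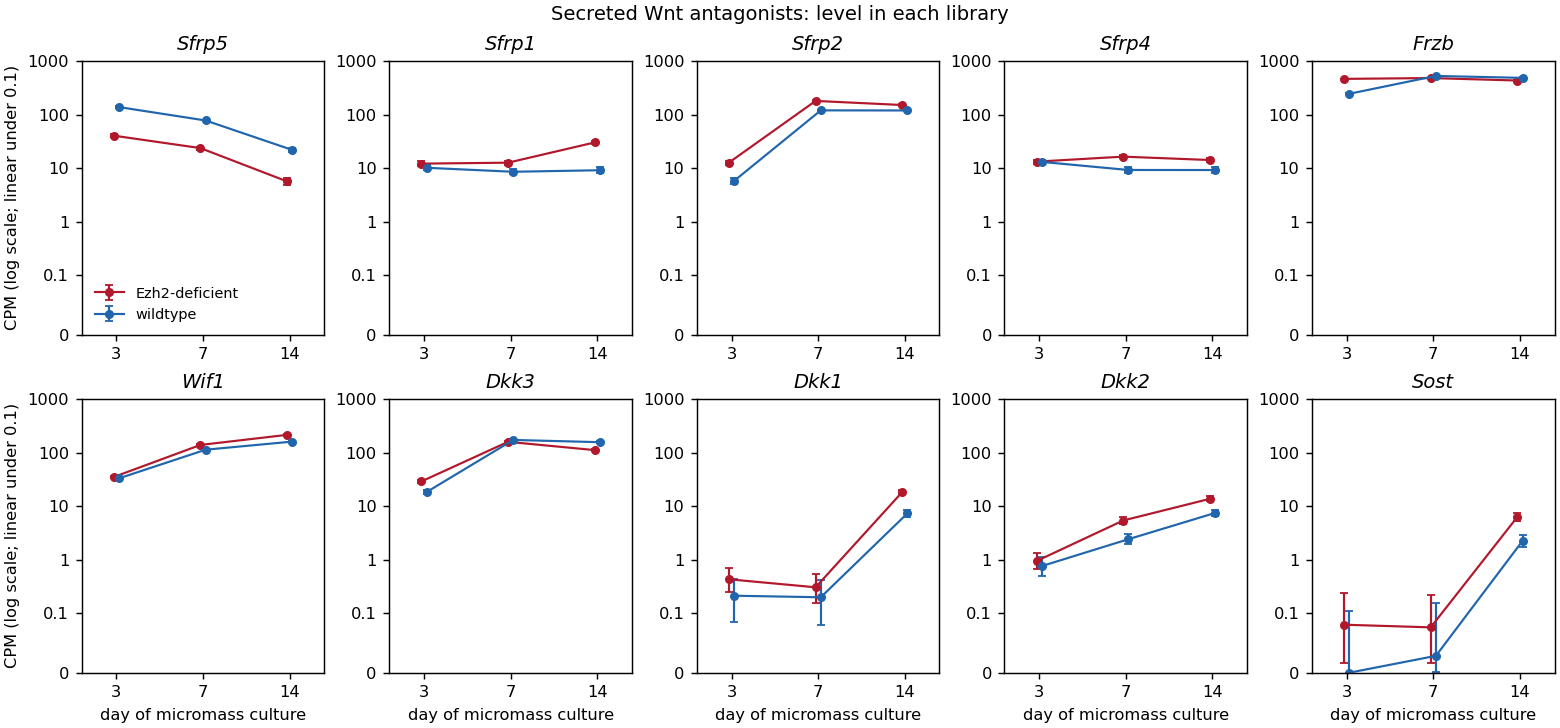
Level of each antagonist in each of the 6 libraries, in counts per 1000000 (log scale, linear under 0.1), with Ezh2-deficient libraries in red and wildtype libraries in blue at days 3, 7 and 14. Bars are exact 95% counting intervals. The Sfrp5 lines run nearly parallel with Ezh2-deficient below wildtype, while Dkk1 and Sost climb between days 7 and 14.

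The decline of Sfrp5 with time was alike in both genotypes. From day 3 to day 14 its level dropped 7.15-fold in Ezh2-deficient cells and 6.32-fold in wildtype cells. The drop was 1.71-fold in Ezh2-deficient and 1.78-fold in wildtype cells from day 3 to day 7. By fold it was larger from day 7 to day 14, at 4.19-fold in Ezh2-deficient and 3.55-fold in wildtype cells. The fitted log2 difference of day 14 minus day 3, with the genotypes standing in for replicates, was -2.74 ± 0.10 (SE), at an adjusted p of 0.000138 in edgeR. The change of the genotype difference per doubling of day was -0.07 ± 0.08 (SE) on the log2 scale, with an adjusted p of 0.759. Thus no change of the Sfrp5 difference with time was detectable, though this test had 1 residual degree of freedom.

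Sfrp5 is known from the surface zone of joint cartilage, and other markers of that zone were set beside it. Of 8 such markers without Sfrp5, 0 passed over all genes in edgeR, DESeq2 or limma-voom. At an unadjusted p under 0.05 in edgeR 2 were lower, namely Erg (-0.46) and Gdf5 (-0.29, both as log2 fold change). Of all genes, 6.33% were lower and 6.82% higher at that threshold. Prg4, which encodes lubricin, had 24.6, 16.0 and 18.1 CPM in Ezh2-deficient libraries against 33.5, 16.8 and 19.0 CPM in wildtype libraries, a fitted log2 fold change of -0.19. The summed level of the 8 markers was 192, 591 and 427 CPM in Ezh2-deficient libraries, against 173, 515 and 626 CPM in wildtype libraries. No marker of this list was at 0. The sum was higher in Ezh2-deficient libraries at days 3 and 7 and lower at day 14. At day 7 Abi3bp alone had 413 CPM in the Ezh2-deficient library and 317 CPM in the wildtype library. By fitted difference, 6 of the 8 markers were negative and 2 positive, with a median log2 fold change of -0.19. In the cartilage list 6 of 11 markers were lower and 0 higher at an unadjusted p under 0.05, with 0 passing over all genes in edgeR or limma-voom and 3 lower in DESeq2. Its median log2 fold change was -0.45, with 9 of 11 negative. Of 4 markers of hypertrophic chondrocytes, 2 had positive and 2 negative fitted differences. Panx3 (0.47, log2) was higher at an unadjusted p under 0.05, 0 passed in edgeR or limma-voom and 1 was higher in DESeq2. The 4 summed to 1043, 1611 and 4261 CPM in Ezh2-deficient libraries, against 853, 1187 and 8667 CPM in wildtype libraries. Col10a1 (-0.89, unadjusted p 0.0648 in edgeR) had 1815 CPM in the Ezh2-deficient library at day 14, against 6134 CPM in the wildtype library. Of all genes, DESeq2 called 1.62% lower and 2.54% higher. The part of the surface zone, cartilage and hypertrophic lists in the Sfrp5 difference was not tested.

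The genes around Sfrp5 had smaller or positive differences. Within 200 kb of its span the table held 12 other genes, of which 10 were tested, and 9 of these had positive fitted differences. The number that passed over all genes was 0 in edgeR, DESeq2 and limma-voom, and 2 had an unadjusted p under 0.05 in edgeR, namely Crtac1 (1.79 ± 0.44 on the log2 scale, adjusted p 0.221) and Morn4 (0.28 ± 0.11, adjusted p 0.372). At that threshold 6.82% of all genes were higher and 6.33% lower, and 8090 of all 16280 genes had positive fitted differences. The closest neighbour, Zfyve27, lies 3379 bases from the Sfrp5 span. It had 42.7, 26.0 and 33.9 CPM in Ezh2-deficient libraries, against 42.3, 25.5 and 28.9 CPM in wildtype libraries. Crtac1 was a low gene on all days, at 0.381 to 0.912 CPM in Ezh2-deficient libraries against 0.114 to 0.303 CPM in wildtype libraries.

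**Figure D2:**
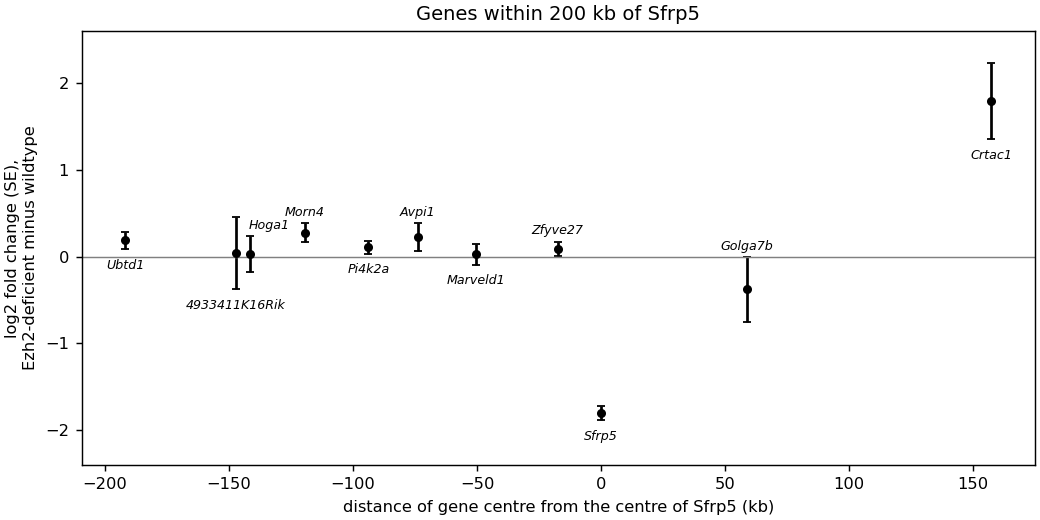
Fitted log2 fold change, Ezh2-deficient minus wildtype over the 3 days, of Sfrp5 and the tested genes within 200 kb, against the distance of the gene centres in kb. Bars are SE. Sfrp5 lies at -1.81, its nearest neighbour Zfyve27 at 0.09 and Crtac1 at 1.79.

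Sfrp1, Sfrp2 and Sfrp4, the other Sfrp genes, leaned higher in Ezh2-deficient cells, opposite to Sfrp5, without passing over all genes in edgeR. Sfrp1 (chromosome 8, 23411502 to 23449632) encodes a broadly made Wnt-binding protein. It had 12.2, 12.7 and 30.2 CPM in Ezh2-deficient libraries, against 10.2, 8.57 and 9.16 CPM in wildtype libraries. The lowest Ezh2-deficient library lay above the highest wildtype library, and the gap was widest at day 14, with a ratio of 3.30 (95% counting interval 2.86 to 3.83). The Ezh2-deficient cells had 2.49 times more at day 14 than at day 3, while the wildtype ratio was 0.901. The fitted genotype difference was 0.84 ± 0.29 (SE, log2), with an adjusted p of 0.325 in edgeR, and its change per doubling of day was 0.64 ± 0.15, with an adjusted p of 0.153.

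Sfrp2 (chromosome 3, 83766321 to 83774314) has been studied in limb and mesenchymal cells as a modulator of Wnt. It had 12.7, 180.4 and 151 CPM in Ezh2-deficient libraries, against 5.79, 120.1 and 119.6 CPM in wildtype libraries. Both genotypes thus made a steep step between days 3 and 7, of 14.2-fold in Ezh2-deficient and 20.7-fold in wildtype cells, and climbed no further. The ratio between genotypes shrank over these days, with values of 2.19, 1.50 and 1.26. The genotype difference over the days was 0.67 ± 0.15 (SE, log2), with an adjusted p of 0.204 in edgeR and 0.00534 in DESeq2. Day 14 exceeded day 3 by 3.95 ± 0.21 on the log2 scale, at an adjusted p of 0.000195 in edgeR. An antisense gene, Gm26771, overlaps exons of Sfrp2 in the annotation, and without stated strandedness reads of both cannot be told apart.

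Sfrp4 (chromosome 13, 19623175 to 19632823), whose human counterpart is mutated in a disorder of cortical bone, varied little. It had 13.2, 16.4 and 14.2 CPM in Ezh2-deficient libraries, against 13.1, 9.25 and 9.23 CPM in wildtype libraries. The day 3 libraries were level, with a ratio of 1.01 (0.886 to 1.15), and the later ratios were 1.78 and 1.54. The fitted genotype difference was 0.49 ± 0.18 (SE, log2), with an adjusted p of 0.352 in edgeR, and it was 0.73 with an adjusted p of 0.0335 without the day 3 pair. Day 14 minus day 3 was -0.22 ± 0.22, with an adjusted p of 0.455.

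Frzb (chromosome 2, 80411970 to 80447396), a Frizzled-related protein of articular cartilage, was the most abundant antagonist by RPKM in all 6 libraries. It had 465, 482 and 433 CPM in Ezh2-deficient libraries, against 245, 528 and 486 CPM in wildtype libraries. The Ezh2-deficient level was steady over time, while the wildtype level was 2.15 times higher at day 7 than at day 3. The day 3 ratio was accordingly 1.90 (1.85 to 1.95), and the later ones were 0.913 (0.895 to 0.932) and 0.893 (0.871 to 0.915). The fitted genotype difference over the days was 0.21 ± 0.23 (SE, log2), with an adjusted p of 0.743 in edgeR. The change of that difference per doubling of day was -0.50 ± 0.12, with an adjusted p of 0.184.

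Wif1 (chromosome 10, 121034004 to 121100642) binds Wnt proteins through a domain of its own type. It had 35.1, 139 and 214 CPM in Ezh2-deficient libraries, against 33.1, 113 and 160.5 CPM in wildtype libraries. Both genotypes climbed from each day to the next, and the ratio between them was 1.06, 1.23 and 1.34 in day order. Day 14 exceeded day 3 by 2.44 ± 0.11 (SE, log2), at an adjusted p of 0.000163 in edgeR. The genotype difference was 0.27 ± 0.09, with an adjusted p of 0.309.

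Dkk3 (chromosome 7, 112116019 to 112159057) belongs to the Dkk family by sequence but is known to differ from Dkk1 and Dkk2 in its binding partners. It had 28.9, 159 and 111 CPM in Ezh2-deficient libraries, against 18.3, 172 and 156 CPM in wildtype libraries. The Ezh2-deficient library was the higher one at day 3 and the lower one at days 7 and 14, with ratios of 1.58, 0.922 and 0.712. The difference over all days was accordingly close to 0 (0.0068 ± 0.21, SE, log2, adjusted p 0.991 in edgeR). Its change per doubling of day was -0.52 ± 0.07, with an adjusted p of 0.0566. Dkk3 rose with time, by 2.50 ± 0.28 from day 3 to day 14, at an adjusted p of 0.00159.

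**Figure D3:**
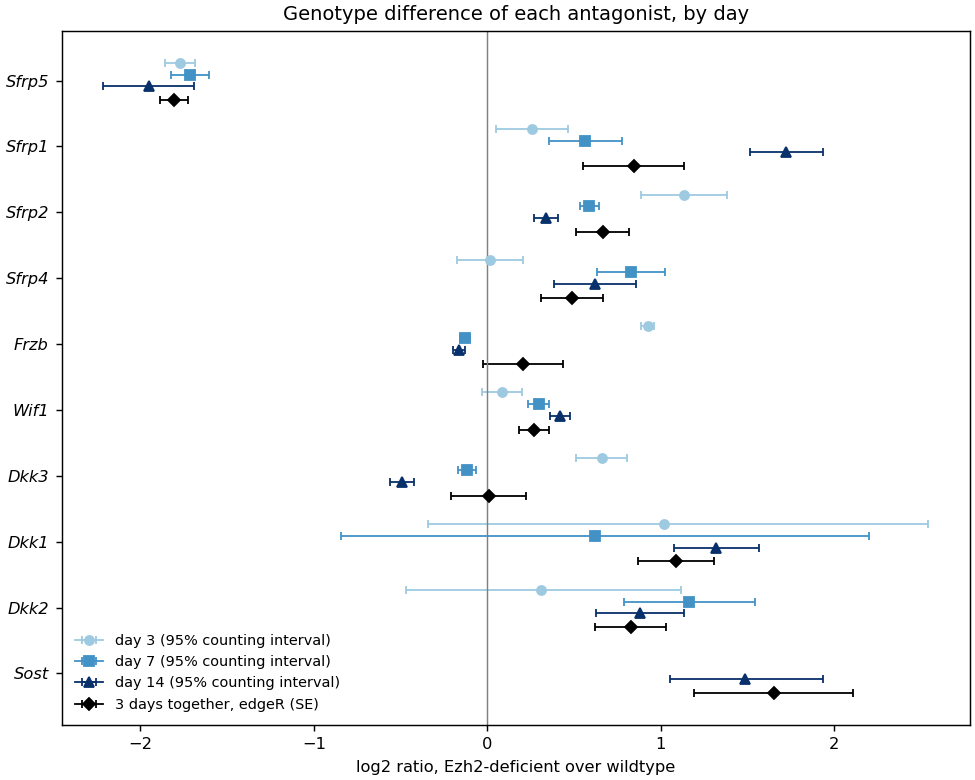
Log2 ratio of Ezh2-deficient over wildtype for each antagonist at days 3, 7 and 14 (circles, squares and triangles, with 95% counting intervals), and the fitted log2 fold change over the 3 days (black diamonds, with SE). The Sfrp5 points gather between -1.95 and -1.71, the Sfrp1 points move away from 0 with time, and the Dkk3 points cross it. Sost is shown for day 14 alone, since both libraries were at or under 3 fragments before.

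Dkk1, Dkk2 and Sost, the antagonists that bind Lrp5 and Lrp6, had their highest levels at day 14 in both genotypes, and all were higher in the Ezh2-deficient library then. Dkk1 (chromosome 19, 30545885 to 30549496, minus strand) is itself a target of β-catenin and so part of a feedback loop. Sost (chromosome 11, 101962458 to 101967015, minus strand) is best known as a product of osteocytes, the cells embedded in bone. Their promoter windows are shown because both genes had few counts up to day 7 and many more at day 14. They cover chr19:30549447-30549746 and chr11:101966966-101967265, both on the minus strand (RefSeq, GRCm38.p6), with CpG dinucleotides in capitals.
Dkk1: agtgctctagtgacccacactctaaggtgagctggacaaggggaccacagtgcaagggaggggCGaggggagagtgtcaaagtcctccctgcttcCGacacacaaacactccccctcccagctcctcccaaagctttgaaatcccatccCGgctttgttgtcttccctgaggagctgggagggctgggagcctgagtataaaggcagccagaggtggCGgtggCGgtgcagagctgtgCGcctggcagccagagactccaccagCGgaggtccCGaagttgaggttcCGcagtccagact
Sost: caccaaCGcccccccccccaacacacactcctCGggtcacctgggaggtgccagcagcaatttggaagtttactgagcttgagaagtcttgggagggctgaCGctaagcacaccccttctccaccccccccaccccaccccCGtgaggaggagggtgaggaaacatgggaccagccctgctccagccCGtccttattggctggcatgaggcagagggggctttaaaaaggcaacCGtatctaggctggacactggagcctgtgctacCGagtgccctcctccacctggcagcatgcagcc
The Dkk1 window held 9 CpG dinucleotides and the Sost window 7, which is the median of all windows. Words bound by the β-catenin partners TCF and LEF were searched on both strands as CTTTGAA or else CTTTGAT, with CTTTGTA and then CTTTGTT as further forms, and 16.9% of all windows held at least 1. The Dkk1 window held 2, which start 117 and 98 bases before the transcription start and do not overlap. The stretch with both is printed with the words in capitals (chr19:30549588-30549613, minus strand).
Dkk1 stretch: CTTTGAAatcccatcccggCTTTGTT
None of these letters occurred in the windows of Sfrp5, Frzb, Sfrp2, Wif1, Dkk2 or Sost, which says nothing of other stretches. The word TATAAA, present in 8.32% of windows, occurred in those of Dkk1 and Dkk2.

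Dkk1 had 32, 24 and 1004 counts in Ezh2-deficient libraries at days 3, 7 and 14, against 14, 14 and 386 in wildtype libraries. This was 0.431, 0.305 and 18.3 CPM in Ezh2-deficient cells, against 0.212, 0.199 and 7.33 CPM in wildtype cells. The gene had few counts up to day 7 and was plain to see by day 14 in both genotypes, 42.6-fold above day 3 in Ezh2-deficient cells (95% counting interval 25.9 to 75.0) and 34.5-fold in wildtype cells (16.4 to 87.0). At day 14 the ratio between genotypes was 2.50 (2.11 to 2.96), while the intervals at days 3 and 7 included 1. Across the days the genotype difference was 1.09 ± 0.22 (SE, log2), with an adjusted p of 0.166 in edgeR, 0.0108 in DESeq2 and 0.0791 in limma-voom. Day 14 exceeded day 3 by 5.27 ± 0.27, at an adjusted p of 0.000191 in edgeR.

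Dkk2 (chromosome 3, 132085292 to 132180304), which in mouse is needed for the final steps of osteoblast maturation, climbed more evenly. It had 0.942, 5.39 and 13.7 CPM in Ezh2-deficient libraries, against 0.758, 2.41 and 7.45 CPM in wildtype libraries. The ratio was 1.24 at day 3, with an interval that included 1 (0.722 to 2.16), then 2.24 (1.73 to 2.91) and 1.84 (1.54 to 2.20). The genotype difference was 0.83 ± 0.20 (SE, log2), with an adjusted p of 0.225 in edgeR and 0.0241 in DESeq2. Day 14 exceeded day 3 by 3.58 ± 0.27, at an adjusted p of 0.000499 in edgeR.

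Sost had 6, 6 and 344 counts in Ezh2-deficient libraries, against 0, 2 and 118 in wildtype libraries. At days 3 and 7 both libraries were at or under 3 fragments, so no ratio is given for those days. At day 14 it reached 6.28 CPM in Ezh2-deficient cells, against 2.24 CPM in wildtype cells, a ratio of 2.80 (2.07 to 3.83). The wildtype level at day 14 was at least 24.6-fold higher than at day 3, where the library had none, with the floor set at 3 fragments in that library. The fitted genotype difference of 1.65 ± 0.46 (SE, log2, adjusted p 0.264 in edgeR) rests almost wholly on day 14, and without that pair the gene was not tested. No test of day 14 against day 3 is given, since the gene entered the fit through its day 14 counts.

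Bone cell markers leaned the same way as these 3 antagonists. Of 10 osteoblast markers, 9 were higher in Ezh2-deficient cells at an unadjusted p under 0.05 in edgeR, against 6.82% of all genes. The summed level of the 10 was 1959, 10410.5 and 100248 CPM in Ezh2-deficient libraries, against 1395, 8613 and 50487 CPM in wildtype libraries. Most of the day 14 sum came from Col1a1 (62979 CPM Ezh2-deficient, 34581 CPM wildtype) and Ibsp (29946 and 8246 CPM). Spp1 was the marker with a negative fitted difference (-0.13, log2), at 3755 CPM in the Ezh2-deficient library of day 14 against 5705 CPM in the wildtype library. Of 4 osteocyte markers, 3 were tested and all 3 had an unadjusted p under 0.05. Their sum was 6.24, 32.8 and 410 CPM in Ezh2-deficient libraries, against 3.19, 11.5 and 242 CPM in wildtype libraries. Mepe was at 0 in both day 3 libraries, and Fgf23 was at 0 in all wildtype libraries. Over all genes, 0 of either list passed in edgeR, while DESeq2 called 7 osteoblast and 1 osteocyte marker higher and limma-voom 3 and 1. DESeq2 called 2.54% of all genes higher and limma-voom 0.19%. The part of these markers in the differences of Dkk1, Dkk2 and Sost was not tested.

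Counted together, the antagonists leaned higher in Ezh2-deficient cells, with Sfrp5, Dkk3 and Frzb apart. At an unadjusted p under 0.05 in edgeR, 7 of 10 were higher, against 6.82% of all genes, and 1 was lower, against 6.33% of all genes. By DESeq2 with adjusted p, 3 were higher (Dkk1, Dkk2 and Sfrp2, with 2.54% of 15017 genes called) and 1 was lower (1.62%). By limma-voom, 0 were higher (0.19%) and 1 was lower (0.0553%). The median log2 fold change of the 10 genes was 0.58, with 9 positive and 1 negative, beside a median of -0.0018 over all 16280 genes. Of all genes, 8090 were positive and 8190 negative. Sost, whose difference rests almost wholly on day 14, was among the 7 higher and the 9 positive. Dkk3 (0.0068 ± 0.21, SE) and Frzb (0.21 ± 0.23), also among the 9 positive, lay within their SE of 0. Without the day 3 pair their fitted differences were -0.30 and -0.15. The 10 genes were chosen with earlier results of these data known. Without the day 3 pair, edgeR called 3 higher (Dkk1, Dkk2 and Sfrp4) and 1 lower, and 863 genes in all. The count at an unadjusted p under 0.05 also depended on the days used. It was 7 higher and 2 lower without the day 3 pair, 3 higher and 1 lower without the day 7 pair, 2 higher and 1 lower of 9 without the day 14 pair, and 1 higher and 0 lower with no day term. The shares of all genes at that threshold are not given for these fits. These counts therefore cannot be set against 6.82% and 6.33%, which belong to the fit of all 6 libraries with day as a factor.

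Within single days there is no replicate, and genes were counted by a fixed rule of at least 2-fold at 1 CPM or more. At day 3, Sfrp5 was past this fold lower (0.485% of genes) and Sfrp2 higher (1.54%). At day 7, Sfrp5 was lower (1.45%) and Dkk2 higher (2.11%). At day 14, Sfrp5 was lower (2.84%) and Sfrp1, Dkk1 and Sost were higher (2.16%). Sfrp5 was thus the one antagonist past 2-fold on all 3 days, and the antagonists past it in the other direction differed from day to day.

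Markers of cells other than chondrocytes were set beside these ratios. At an unadjusted p under 0.05 in edgeR, 6.82% of all genes were higher in Ezh2-deficient cells and 6.33% lower. Of 7 adipocyte markers, 6 were higher at that threshold. The summed level of the 7 was 119, 448 and 208 CPM in Ezh2-deficient libraries at days 3, 7 and 14, against 40.5, 291 and 158 CPM in wildtype libraries. Of 7 smooth muscle markers, 4 were higher and 1 was lower, and their sum was 188, 506 and 270 CPM in Ezh2-deficient libraries, against 72.4, 343 and 235 CPM in wildtype libraries. Both lists differed most at day 3. On that day Frzb, Dkk3 and Sfrp2 had their highest ratios, while Sfrp1, Sfrp4, Wif1 and Dkk2 had their lowest. Among the adipocyte markers, Lep was at 0 in the wildtype library of day 3. Fibroblast markers summed to 1792, 8141 and 8698 CPM in Ezh2-deficient libraries, against 1592, 6626 and 10589 CPM in wildtype libraries. Macrophage markers summed to 104, 1358 and 2591 CPM in Ezh2-deficient libraries, against 139, 1308 and 1862 CPM in wildtype libraries. Endothelial markers were sparse in all libraries, at 2.21, 5.82 and 3.98 CPM in Ezh2-deficient cells, against 2.85, 6.27 and 5.74 CPM in wildtype cells. Over all genes 0 markers of these 5 lists passed in edgeR, while DESeq2 called 4 adipocyte, 3 smooth muscle, 1 fibroblast and 1 macrophage marker higher, and limma-voom 1 smooth muscle marker. Of all genes, 2.54% were called higher by DESeq2 and 0.19% by limma-voom. The part of such cells in the antagonist differences was not tested.

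From day 3 to day 14, leaving aside Sost, 5 of the other 9 antagonists rose in edgeR's test, as did 23.2% of all genes, and 1 fell, as did 22.4% of all genes. Those that rose were Sfrp2, Wif1, Dkk3, Dkk1 and Dkk2, and the one that fell was Sfrp5. The median log2 difference was 2.44 for these 9 antagonists and -0.019 for all genes. Sfrp1, Sfrp4 and Frzb did not pass, at 0.63, -0.22 and 0.41 on the log2 scale. For the change of the genotype difference per doubling of day, 0 of 10 passed in edgeR (0.614% of all genes). At an unadjusted p under 0.05 it was 4 of 10, namely Sfrp1 upward and Sfrp2, Frzb and Dkk3 downward, against 13.3% of all genes.

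The make-up of the antagonist transcripts is given on the authors' RPKM, which divides by the coding length listed for each gene, so that levels of different genes can be set side by side. The 10 genes summed to 169, 344 and 296 RPKM in Ezh2-deficient libraries at days 3, 7 and 14, against 147, 341 and 302 RPKM in wildtype libraries. The total thus differed little between genotypes, by ratios of 1.15, 1.01 and 0.980, while its composition at day 3 did. Frzb made up 71.8% of the sum in the Ezh2-deficient library at day 3, against 44.2% in the wildtype library, and Sfrp5 made up 9.59% in the Ezh2-deficient library, against 38.3% in the wildtype library. In RPKM, Sfrp5 was at 16.2 and Frzb at 121 in the Ezh2-deficient library of that day, against 56.4 and 65.0 in the wildtype library. The nearly equal wildtype levels of both genes contrasted with a wide gap in the Ezh2-deficient cells.

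At later days Sfrp5 was a smaller part of the sum in both genotypes. It made up 3.19% and 0.772% of the sum in Ezh2-deficient libraries at days 7 and 14, against 10.5% and 3.12% in wildtype libraries. Frzb made up 42.2% and 38.5% in Ezh2-deficient libraries, against 46.2% and 45.0% in wildtype libraries. Sfrp2, Wif1 and Dkk3 filled most of the rest, at 23.1%, 15.9% and 12.1% in the Ezh2-deficient library at day 7, against 15.3%, 12.9% and 13.1% in the wildtype library. The order by RPKM began with Frzb in all 6 libraries, and Sfrp5 was second at day 3 in both genotypes. By day 14 it was in place 10 of 10 in the Ezh2-deficient library, against place 5 in the wildtype library. That last place is not told apart from place 9, held by Sost, since their levels were 2.28 and 2.33 RPKM and the counting interval of Sfrp5 was 4.80 to 6.62 CPM around 5.66 CPM.

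The coreceptor-binding group of Dkk1, Dkk2 and Sost was a small part of the sum, at 0.219%, 0.416% and 3.87% in Ezh2-deficient libraries at days 3, 7 and 14, against 0.158%, 0.192% and 1.73% in wildtype libraries. Without Sfrp5, the ratio of the summed RPKM of the other 9 genes, Ezh2-deficient over wildtype, was 1.68, 1.09 and 1.00 in day order. The first value came mostly from Frzb. These sums have 1 library each and no test.

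**Figure D4:**
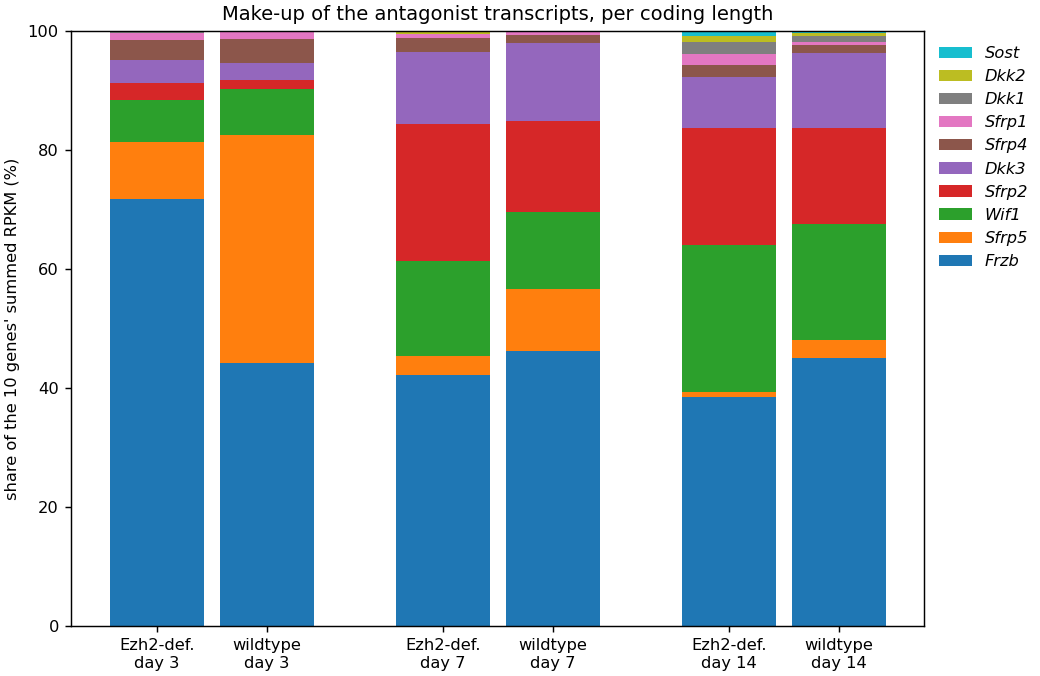
Share of each antagonist in the summed RPKM of the 10 genes, in %, for the Ezh2-deficient and the wildtype library of days 3, 7 and 14. Sfrp5 (orange) fills 9.59% of the Ezh2-deficient bar against 38.3% of the wildtype bar at day 3, and Dkk1, Dkk2 and Sost appear at the top of the bars by day 14.

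Profiles were compared by the root mean square distance between log2 CPM values over the 6 libraries, each gene centred on its own mean, among 13327 genes with a mean of at least 1 CPM. The genes most like Sfrp5 were Dcx (distance 0.370), Chdh (0.470), St8sia6 (0.489), Wisp3 (0.492) and Mpzl2 (0.494). Wisp3 belongs to the CCN family of secreted matrix-associated proteins, and Dcx encodes a microtubule-binding protein. Both were lower at day 14 than at day 3, and lower in Ezh2-deficient than in wildtype cells at every time. Dcx had 1.35, 0.661 and 0.109 CPM in Ezh2-deficient libraries, against 2.28, 1.45 and 0.380 CPM in wildtype libraries. Its level in the Ezh2-deficient library of day 14 was near the floor of 3 fragments. Wisp3 had 5.14, 3.10 and 0.401 CPM in Ezh2-deficient libraries, against 7.10, 9.73 and 2.01 CPM in wildtype libraries. None of the 5 passed the genotype test in edgeR, with adjusted p from 0.158 to 0.317.

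No antagonist lay close to Sfrp5, the nearest being Sfrp4 at a distance of 1.58. Dkk1 was nearest to Lpar3 (0.196), Col22a1 (0.418) and Sost (0.489), and Sost to Baiap2l2 (0.410), Col13a1 (0.426) and Dkk1. Col13a1 and Col22a1 are collagen genes, and both were far higher at day 14 than before. Dkk2 was nearest to Spry1 (0.203), Postn (0.211) and Sorcs2 (0.242), of which Postn encodes periostin, a matrix protein of periosteum and fibrous tissue. Frzb lay nearest to Inhbb (0.145), Rin1 (0.150) and Lrp11 (0.152), and Dkk3 to Scara5 (0.149), Adam33 (0.162) and Sox18 (0.168). Wif1 lay nearest to Plxnd1 (0.0871), Arrb2 (0.0994) and Gm13889 (0.114). For Sfrp1 these were Ebf4 (0.120), Wwc1 (0.192) and Dclk2 (0.193), for Sfrp2 Ddx60 (0.206), Slamf9 (0.242) and Cx3cr1 (0.242), and for Sfrp4 Tor3a (0.0850), 6030419C18Rik (0.107) and Tmcc3 (0.129). The likeness of Dkk1 and Sost depended on the prior count added before the log, which was 2 here. With 0.5 in its place Sost ranked 48 among the genes nearest to Dkk1, and Dkk1 ranked 12 among those nearest to Sost, at a distance of 1.12. With 5 the ranks were 2 and 1, at 0.201. Sost was at or under 3 fragments in 4 of the 6 libraries.

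Other genes of Wnt signalling were taken as lists by role. Of 83 genes in 6 lists, 72 were tested, and 0 passed over all genes in edgeR or limma-voom, with 7 higher and 0 lower by DESeq2. At an unadjusted p under 0.05 in edgeR, 18 were higher and 4 were lower in Ezh2-deficient cells, against 6.82% and 6.33% of all genes. The DESeq2 shares over all genes were 2.54% higher and 1.62% lower.

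Among the ligands, 11 of 19 were tested, of which 3 were higher and 1 lower (unadjusted p under 0.05), and the median log2 fold change was 0.28. Wnt10b, a ligand that favours osteoblast formation, had 13.0, 7.19 and 18.3 CPM in Ezh2-deficient libraries, against 6.58, 3.23 and 8.66 CPM in wildtype libraries. The Ezh2-deficient library was the higher one each day, by a fitted 1.07 ± 0.11 (SE, log2) with an adjusted p of 0.0727 in edgeR. Wnt5a (0.53, adjusted p 0.0886) and Wnt16 (1.63, adjusted p 0.110) were the other ligands on the higher side, and Wnt5b (-0.36, adjusted p 0.285) was on the lower side. Both Wnt10b and Wnt5a passed in DESeq2, as did Wnt16.

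Of the 19 receptor genes all were tested, and at an unadjusted p under 0.05, 6 were higher and 0 lower, with a median of 0.09. Fzd5, a Frizzled receptor, had the smallest p of them (0.99 ± 0.14, SE, log2, adjusted p 0.106 in edgeR). It had 12.9, 33.4 and 108 CPM in Ezh2-deficient libraries, against 4.97, 20.3 and 57.9 CPM in wildtype libraries. Lrp4, to which sclerostin also binds, Fzd9, Fzd4, Fzd8 and Fzd3 followed at 0.32 to 0.39. Among 12 genes for Wnt secretion and enhancement, Rnf43, Rspo2 and Porcn were higher and Ndp and Lgr4 lower at an unadjusted p under 0.05, with a median near 0. The receptor and enhancer lists thus lay closer to the median of all genes than the antagonists did.

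Of 7 other secreted inhibitors 5 were tested and 1, listed as 2610109H07Rik, was higher at an unadjusted p under 0.05 (0.68). Of 16 intracellular genes, Ctnnbip1, an inhibitor of β-catenin, was lower (-0.24) and none was higher. Of 10 genes known as Wnt targets in many tissues, 9 were tested, of which 5 were higher (unadjusted p under 0.05) and 0 lower, and the median was 0.30. These were Wisp1 (0.70, adjusted p 0.156), Ccnd1 (0.53), Nkd1 (0.38), Myc (0.30) and Tcf7 (0.28). Axin2, a direct β-catenin target, was not among them, at a fitted 0.10 with an unadjusted p of 0.533. Wisp1 had 38.2, 41.1 and 410 CPM in Ezh2-deficient libraries, against 29.3, 26.1 and 198 CPM in wildtype libraries.

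**Figure D5:**
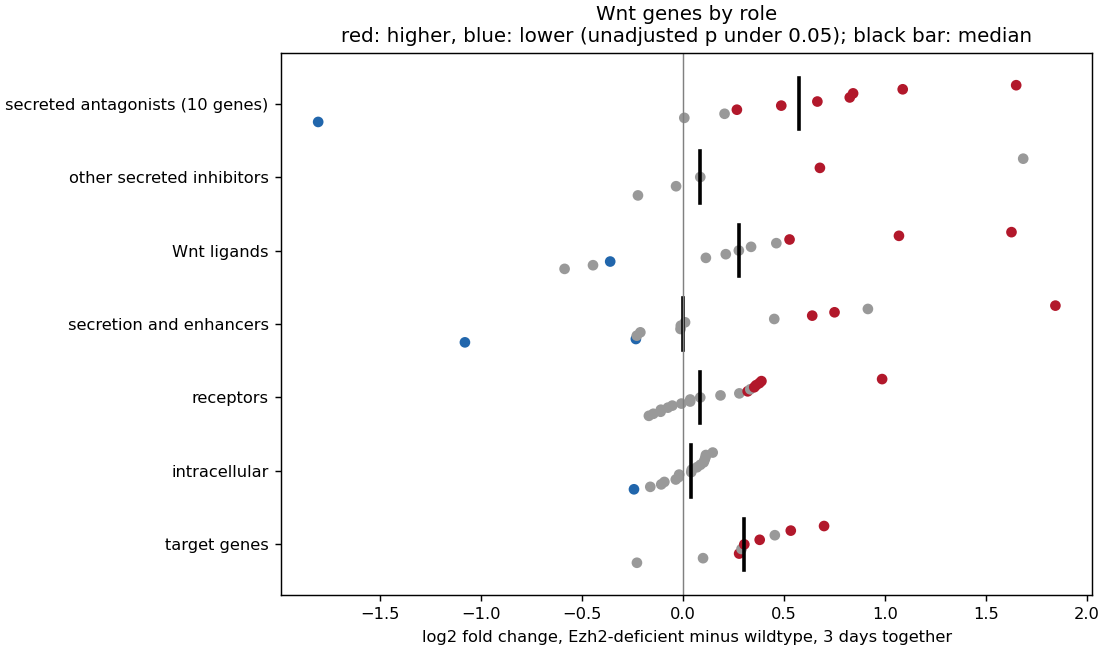
Fitted log2 fold change, Ezh2-deficient minus wildtype over the 3 days, of every tested Wnt gene by role. Red points stand for higher and blue points for lower genes (unadjusted p under 0.05), black bars are list medians, and the grey line is the median of all genes. The antagonists have a median of 0.58 with Sfrp5 far to the left at -1.81.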

How the data were processed

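The deposited table held, for each of the 6 libraries, counts per gene, not normalized by the authors, and RPKM values that the authors made from the same counts with a coding length per gene, per the file headers. Every count was even, so 2 counts were taken as 1 fragment. CASAVA 1.9, TopHat 12.0.6, HTSeq and mm10 are named in the submitters' processing notes. Strandedness is not given in the sources used here. Columns without a sample numbered 0. CPM used library sizes scaled by edgeR's trimmed mean of M values (TMM).

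Genes with at least 10 counts (filterByExpr by day) numbered 16280, all 10 antagonists among them. Sost passed only through day 14. Tests ran in R 4.3.3 with edgeR 4.0.16 (quasi-likelihood F test, two-sided, Benjamini-Hochberg over all genes, threshold 0.05), with DESeq2 1.42.0 and limma 3.58.1 as alternatives. The genotype fit had day as a factor. Day 14 minus day 3 came from the same fit, and a further fit added genotype by log2 day. Scripts were tested on simulated data. Alternatives were other scalings and filters, halved counts, robust dispersion, no day or genotype term, other prior counts, the authors' RPKM and leaving out each day's pair. RPKM was used for levels between genes and, as an alternative, for ratios within a day.

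Named were Ezh2, the 10 antagonists, up to 6 genes per Wnt list with an unadjusted p under 0.05, and the 5 (Sfrp5) or 3 nearest profiles. Axin2, the genes near Sfrp5 and Nnt were named after their values were seen. The members and lists were chosen with earlier results of these data known. Promoter sequences are RefSeq's, of GRCm38.p6.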

Additional observations from a re-analysis of the deposited data

Results flagged for a closer look

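The genotype difference of 2 antagonists had opposite signs on different days, and the sign change itself was not tested day by day, since each day has 1 library per genotype. For Frzb the log2 ratio of Ezh2-deficient over wildtype was positive at day 3 (0.93) and negative at day 7 (-0.13) and day 14 (-0.16). For Dkk3 the same ratio was 0.66 on day 3, then -0.12 on day 7 and -0.49 on day 14. The fitted change of the difference per doubling of day had an adjusted p of 0.184 for Frzb and 0.0566 for Dkk3 in edgeR's quasi-likelihood test.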

How the results depend on the processing

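Sfrp5 was negative under all 13 alternatives of the genotype fit and passed in 9. It did not pass with total counts only (-1.82, adjusted p 0.0505), with no day term (-1.77, adjusted p 1.00), without the day 7 pair or without the day 14 pair, and leaving out each pair gave -1.86 to -1.74. Genes called, 2 in edgeR with TMM, were 9 with RLE factors, 0 with total counts only, 9 with no filter, 1 at 1 CPM or more in 3 libraries, 8 with robust dispersion, 625 in DESeq2, 40 in limma-voom, 0 with no day term and 0 to 863 when each pair was left out. Antagonists called, 1 in edgeR, were 0 with total counts only or no day term, 4 in DESeq2 and 0 to 4 when each pair was left out. Dkk3, near 0, turned negative with total counts only (-0.0115), halved counts (-0.0011), limma-voom (-0.0700) and no day term (-0.21), and lay between -0.30 and 0.27 when pairs were left out. Frzb lay between -0.15 and 0.40 then. Sfrp5 in day 14 minus day 3 was -2.70 (adjusted p 0.0663) with no genotype term. Genes whose difference changed with day, 100 in edgeR, were 270 with total counts only, 247 with no filter, 0 at 1 CPM or more in 3 libraries and 0 with halved counts. Antagonists among them, 0 in edgeR, were 1 with total counts only and 1 with no filter, namely Dkk3. The trend of Ezh2 was -0.0026 with total counts only. The causes were not tested. The day factor pairs the 2 libraries of each day, and the labels carry no replicate numbers. Depth limits Dkk1 and Sost at days 3 and 7.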
